A study of Mus musculus with 12 samples.

Results

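Collagens are the main structural proteins of the extracellular matrix, and each is built from 3 alpha chains wound into a triple helix. The genes described here are the collagen alpha chain genes, taken as every gene of the count tables whose mouse symbol reads Col, a number, a and a number. There were 44 of them among 55335 gene identifiers, and they were grouped as 11 fibrillar, 6 basement membrane, 9 FACIT (fibril-associated) and 18 other chains. The rule uses symbols alone and no measured value, although it was set with earlier results of these data known.

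Poly(A)-selected RNA was sequenced from 12 libraries in 4 groups of 3. CT26 is a mouse colorectal cancer line, labelled WT, and was studied as subcutaneous tumors and in culture. Midostaurin, a multikinase inhibitor, was given to tumors at 40 mg/kg from day 7 after inoculation for 2 weeks, and the matching tumors received vehicle. Cells in DMEM with 10% FBS received midostaurin at 1 µM for 48 h or the solvent DMSO. The strain, sex and age of the mice are not given in the labels, and nothing there says whether the libraries of a group came from separate animals or cultures, so p-values measure the spread between these libraries, which may be technical.

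Total counts were 33399701 to 48109497 per tumor library and 34787389 to 38144039 per cell library. In the cell libraries Epcam and Cldn7, epithelial markers, had no count, Krt8 lay at or below 1.02 CPM (counts scaled to library size, with edgeR's TMM over all 12 libraries), and Krt18 lay at 22.8 to 29.0 CPM. A tumor library holds cancer cells and host cells together, and fewer cells of a type and less RNA per cell cannot be told apart in it. Vehicle tumor 1 stood apart for collagens and is described below. Part of the results are given with and without it, and a tumor result given once includes it. The cell libraries numbered 1 of both treatments also stood apart from numbers 2 and 3.

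Fibrillar collagens of types I, III and V form the banded fibrils of connective tissue and are made mostly by fibroblasts, although some cancer lines transcribe them too. Type I fibrils normally hold chains from Col1a1 and Col1a2, and type V from Col5a1, Col5a2 and at times Col5a3. Type IV, from Col4a1 and Col4a2, forms the sheet of basement membranes under epithelia and around vessels, and type VI, from Col6a1, Col6a2 and Col6a3, forms beaded filaments around cells. FACIT collagens such as types XII, XIV and XVI sit on the surface of fibrils.

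The promoter windows of 4 members are shown because the results turn on pairs of chains. Col4a1 and Col4a2 start head to head on opposite strands and kept a ratio of 1.35 to 1.81 per kb in all 12 libraries, while Col1a2 was abundant in cultured cells in which Col3a1 was low. Each window covers 250 bases before and 50 from the RefSeq start site (GRCm38.p6), 5′ to 3′ on the gene's own strand. Capitals mark 3 short motifs on either strand. The CCAAT box was searched as CCAAT and its reverse complement ATTGG, the GC box as GGGCGG and its reverse complement CCGCCC, and the TATA box as TATAAA and its reverse complement TTTATA. In these windows no match overlaps another.
Col4a1 (chr8:11312777-11313076, minus strand): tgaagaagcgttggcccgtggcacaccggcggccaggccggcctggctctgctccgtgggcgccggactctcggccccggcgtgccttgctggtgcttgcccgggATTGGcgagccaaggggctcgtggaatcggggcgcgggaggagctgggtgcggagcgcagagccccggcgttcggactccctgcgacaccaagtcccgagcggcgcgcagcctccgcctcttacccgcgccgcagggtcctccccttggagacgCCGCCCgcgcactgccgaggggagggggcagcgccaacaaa
Col4a2 (chr8:11312555-11312854, plus strand): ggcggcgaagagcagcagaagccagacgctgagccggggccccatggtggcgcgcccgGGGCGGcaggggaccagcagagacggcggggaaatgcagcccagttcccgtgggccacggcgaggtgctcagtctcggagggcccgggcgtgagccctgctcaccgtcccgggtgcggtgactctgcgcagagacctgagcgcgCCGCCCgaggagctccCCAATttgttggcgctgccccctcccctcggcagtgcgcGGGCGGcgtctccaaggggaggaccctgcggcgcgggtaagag
Col1a2 (chr6:4505368-4505667, plus strand): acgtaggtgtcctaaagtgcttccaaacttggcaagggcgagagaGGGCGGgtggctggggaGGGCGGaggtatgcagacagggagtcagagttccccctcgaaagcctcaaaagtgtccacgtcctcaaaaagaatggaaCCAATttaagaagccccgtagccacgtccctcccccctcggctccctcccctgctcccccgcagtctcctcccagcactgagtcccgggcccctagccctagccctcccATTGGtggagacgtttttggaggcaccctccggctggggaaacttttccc
Col3a1 (chr1:45311288-45311587, plus strand): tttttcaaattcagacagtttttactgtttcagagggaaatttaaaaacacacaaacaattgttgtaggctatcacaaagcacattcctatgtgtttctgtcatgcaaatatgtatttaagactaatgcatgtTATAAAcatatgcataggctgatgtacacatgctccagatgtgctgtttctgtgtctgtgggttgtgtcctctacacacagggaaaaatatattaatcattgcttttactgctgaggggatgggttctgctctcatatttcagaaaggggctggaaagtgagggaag

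The Col4a1 and Col4a2 windows share 78 bases, and their start sites, at 11312826 and 11312805 on chromosome 8, lie so that the transcripts overlap by 22 bases. The Col1a2 window holds CCAAT at 2 sites and GGGCGG at 2 sites, and the Col3a1 window holds neither but has TATAAA at 1 site. RefSeq windows were found for 35 of the 44 members, 38 windows in all. GGGCGG on either strand was in 23 of the 38 member windows and in 35.7% of all 32851 promoter windows of the table. CCAAT was in 13 of them and in 37.4% of all windows, and TATAAA in 5 and in 13.6%. A match describes letters only.

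Collagen transcripts made up a larger share of tumor than of cell libraries. The share of all counts was 0.258%, 0.315% and 0.413% in midostaurin tumors 2, 3 and 4, and 0.664%, 0.306% and 0.307% in vehicle tumors 1, 2 and 3. It was 0.248%, 0.203% and 0.163% in midostaurin cells 1, 2 and 3, and 0.245%, 0.204% and 0.164% in DMSO cells. The 95% Wilson interval of a share was at most 0.0051 percentage points wide, which covers counting error only. These intervals overlapped for vehicle tumors 2 and 3, and for the treated and control cell libraries of each number. All other pairs of libraries had intervals that did not overlap. Vehicle tumor 1 had the highest share, and the treated and control cell libraries of each number lay close to each other.

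**Figure D1:**
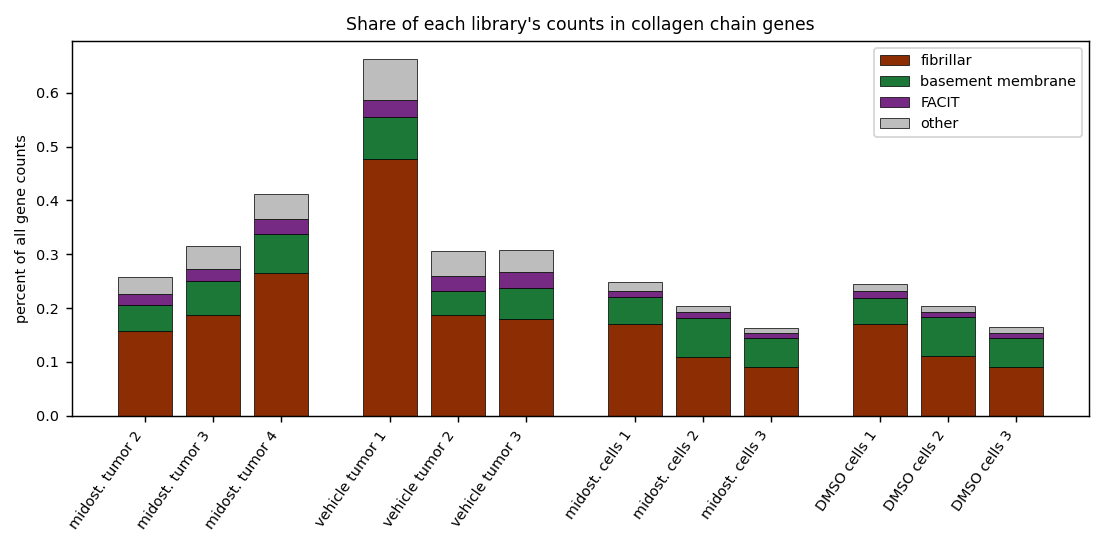
Percent of each library's counts that fell in collagen chain genes, stacked by class, for midostaurin and vehicle tumors and for midostaurin and DMSO cells (1 bar a library). Vehicle tumor 1 reached 0.664%, mostly in fibrillar chains, while the other 5 tumors lay between 0.258% and 0.413% and the cells between 0.163% and 0.248%.

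Fibrillar chains gave most of this signal. Their summed level was 2094 ± 578 CPM in midostaurin tumors and 2806 ± 1620 CPM in vehicle tumors (mean ± SD, n = 3 each), and 1206 ± 367 CPM in midostaurin cells and 1204 ± 369 CPM in DMSO cells. Basement membrane chains summed to 641 ± 122 CPM in midostaurin tumors and 613 ± 148 CPM in vehicle tumors, and to 582 ± 129 CPM in midostaurin cells and 569 ± 129 CPM in DMSO cells. FACIT chains summed to 244 ± 35.4 CPM in midostaurin tumors and 295.5 ± 14.5 CPM in vehicle tumors, and the other chains to 415 ± 79.3 CPM in midostaurin tumors and 547 ± 178 CPM in vehicle tumors. All these midostaurin differences except that of the FACIT chains were smaller than the SD of at least 1 of their groups. The FACIT sums still overlapped, with 284 CPM in midostaurin tumor 4 and 283 CPM in vehicle tumor 2. Most of them was Col16a1, which averaged 193 CPM in midostaurin tumors and 250 CPM in vehicle tumors.

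Of the 44 chains, 24 averaged 1 CPM or more in midostaurin tumors, 26 in vehicle tumors and 16 in each cell group. Below 1 CPM in every library were 16 chains, with a highest value of 0.98 CPM. They include Col2a1, Col9a1, Col9a2, Col10a1 and Col11a1, all chains of cartilage collagens, Col4a3, Col4a4 and Col4a6, the minor type IV chains, and Col6a4, Col6a5 and Col6a6, the minor type VI chains. Col26a1 had no count in any library, which allows up to 3 counts per library.

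The first comparison asks which collagens midostaurin changed in tumors, and none passed the threshold with edgeR. The fibril chains Col1a1 and Col3a1 averaged lower in midostaurin than in vehicle tumors, but without 1 vehicle library they averaged higher. Col6a1, of type VI filaments, and Col16a1, a FACIT, lay lower in every midostaurin tumor than in every vehicle tumor. Col8a1, a short-chain collagen of vessel walls, lay higher in every midostaurin tumor. That is 6.90% of the 29 tested chains lower and 3.45% higher without overlap, beside 13.5% of all genes in each direction, a larger share. Genes that passed edgeR's low-count filter were tested, 29 of the 44 chains. With edgeR's quasi-likelihood test and Benjamini-Hochberg adjustment over all 16094 genes tested, 0 of the 29 had an adjusted p below 0.05, beside a background of 0.0435% of genes called. At an unadjusted p below 0.05 there were 5 of 29, beside 19.9% of all genes, a share near the background. The limma-voom fit called 0 of the 29 as well, beside 0.0994% of all genes, and DESeq2 called 2 lower, Col6a1 and Col16a1, beside 3.56% of all genes called lower by DESeq2.

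Col1a1, which encodes the alpha 1 chain of type I collagen (ENSMUSG00000001506, mm10 chromosome 11, 94936224 to 94953042), measured 139, 193 and 411 CPM in midostaurin tumors 2, 3 and 4, and 995, 211 and 128 CPM in vehicle tumors 1, 2 and 3. Vehicle tumor 1 was by far the highest, vehicle tumor 2 lay within the treated range and vehicle tumor 3 just below it. The log2 fold change was -0.85 ± 0.78 (SE, edgeR adjusted p = 0.592) with all 6 tumors and 0.55 ± 0.49 without vehicle tumor 1 (edgeR adjusted p = 0.640).

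Col3a1, the single chain of type III collagen (ENSMUSG00000026043), followed Col1a1. It measured 115, 248 and 432 CPM in midostaurin tumors, against 1210, 187 and 158 CPM in vehicle tumors. The groups overlapped, and vehicle tumor 1 was again the highest library. Its log2 fold change was -0.97 ± 0.85 (edgeR adjusted p = 0.570), and 0.63 ± 0.52 without vehicle tumor 1. The annotation has 141 exon bases of Col3a1 in common with Gm47302 on the same strand, so a split of those reads is uncertain.

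Col1a2, the partner chain of Col1a1 and the most abundant collagen transcript in every library, measured 1211, 1277 and 1645 CPM in midostaurin tumors, against 2092, 1379 and 1385 CPM in vehicle tumors. The groups overlapped and varied less than those of Col1a1. Its log2 fold change was -0.23 ± 0.20 (edgeR adjusted p = 0.558), and 0.01 ± 0.14 without vehicle tumor 1. Col5a1, the type V chain that starts fibrils, measured 138, 103 and 159 CPM in midostaurin tumors and 198, 95 and 120 CPM in vehicle tumors, with a log2 fold change of -0.05 ± 0.28 (edgeR adjusted p = 0.946). Col27a1, a minor fibrillar chain, stayed between 0.510 and 2.36 CPM in the 6 tumors, and its groups overlapped.

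Col6a1 encodes the alpha 1 chain of type VI collagen (ENSMUSG00000001119). It measured 58.1, 73.7 and 79.2 CPM in midostaurin tumors, against 189, 103 and 112 CPM in vehicle tumors. All 3 treated tumors lay below all 3 vehicle tumors. The log2 fold change was -0.94 ± 0.25 (edgeR adjusted p = 0.122, DESeq2 adjusted p = 0.00324). Without vehicle tumor 1 it was -0.60 ± 0.14 (edgeR adjusted p = 0.260, DESeq2 adjusted p = 0.01). Its partners Col6a2 and Col6a3 did not separate the groups. Col6a2 measured 11.6, 23.5 and 35.0 CPM in midostaurin tumors and 98.6, 30.8 and 17.5 CPM in vehicle tumors, and Col6a3 measured 17.7, 34.3 and 42.4 CPM in midostaurin tumors and 102, 35.2 and 17.8 CPM in vehicle tumors. Their log2 fold changes, -1.07 ± 0.67 and -0.72 ± 0.63, were -0.04 ± 0.48 and 0.26 ± 0.44 without vehicle tumor 1.

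Col16a1, a FACIT chain (ENSMUSG00000040690), measured 197, 173 and 209 CPM in midostaurin tumors, against 247, 232 and 271 CPM in vehicle tumors. The groups did not overlap, and vehicle tumor 1 lay between the other 2 vehicle tumors. For Col16a1 the log2 fold change was -0.37 ± 0.10 (edgeR adjusted p = 0.121, DESeq2 adjusted p = 0.0152). Without vehicle tumor 1 it was -0.37 ± 0.11 (edgeR adjusted p = 0.282, DESeq2 adjusted p = 0.0643). Col8a1, which encodes a short-chain collagen, measured 164, 171 and 179 CPM in midostaurin tumors and 160, 149 and 137 CPM in vehicle tumors. Its groups did not overlap either, although midostaurin tumor 2 and vehicle tumor 1 lay close together, and its log2 fold change was 0.20 ± 0.09 (edgeR adjusted p = 0.249, DESeq2 adjusted p = 0.187). These 3 chains were the ones of 29 whose groups did not overlap, 1 higher and 2 lower, beside 13.5% of all genes in each direction.

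The type IV chains Col4a1 and Col4a2 averaged nearly the same in both tumor groups. Col4a1 averaged 327 ± 65.5 CPM in midostaurin tumors and 331 ± 89.4 CPM in vehicle tumors (SD, n = 3 each), a log2 fold change of -0.02 ± 0.22 (edgeR adjusted p = 0.974). Col4a2 averaged 231 ± 50.7 CPM in midostaurin tumors and 223 ± 58.8 CPM in vehicle tumors, a log2 fold change of 0.05 ± 0.23 (edgeR adjusted p = 0.921). Col4a5, a chain of the type IV family, measured 72.1, 94.2 and 82.2 CPM in midostaurin tumors and 52.3, 49.4 and 76.9 CPM in vehicle tumors. Vehicle tumor 3 lay inside the treated range, and the log2 fold change was 0.48 ± 0.19 (edgeR adjusted p = 0.225). A p that missed the threshold does not show that the type IV levels were equal.

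Among the remaining FACIT chains, Col12a1, which lies on type I fibrils under tension, varied most. It measured 15.2, 44.6 and 60.0 CPM in midostaurin tumors and 48.4, 41.2 and 4.57 CPM in vehicle tumors, a log2 fold change of 0.35 ± 0.81 (edgeR adjusted p = 0.850). Col14a1, another fibril-surface chain, measured 1.46, 5.61 and 9.98 CPM in midostaurin tumors and 11.5, 5.13 and 11.5 CPM in vehicle tumors, with a log2 fold change of -0.72 ± 0.64 (edgeR adjusted p = 0.574). Col9a3 and Col20a1 stayed between 1.28 and 4.01 CPM in tumors, and their groups overlapped. Col18a1, a vessel basement membrane collagen whose end fragment is endostatin, averaged 89.9 ± 20.6 CPM in midostaurin tumors and 110 ± 12.4 CPM in vehicle tumors (SD, n = 3 each), a log2 fold change of -0.29 ± 0.18 (edgeR adjusted p = 0.402).

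Col17a1, a transmembrane collagen of the hemidesmosomes that anchor basal skin cells, was present at more than a trace in 1 tumor alone. It measured 0.18, 0.245 and 0.301 CPM in midostaurin tumors, and 0.226, 27.5 and 0.443 CPM in vehicle tumors. Vehicle tumor 2 held nearly all its counts, and its log2 fold change of -5.25 ± 1.88 (edgeR adjusted p = 0.194, with no p from DESeq2) rests on that library. Keratinocyte markers (Krt1, Krt5, Krt10, Krt14 and Trp63) summed to 729 CPM there, with all 5 detected, against 1.5 to 1.8 CPM in midostaurin tumors and 1.53 and 1.63 CPM in the other 2 vehicle tumors, in each of which 2 or 3 of the 5 were at 0. Their part in the Col17a1 value was not tested. Col7a1, the anchoring fibril collagen of skin, was also highest in vehicle tumor 2, at 19.0 CPM, against 2.87 to 8.76 CPM in the other 5 tumors.

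**Figure D2:**
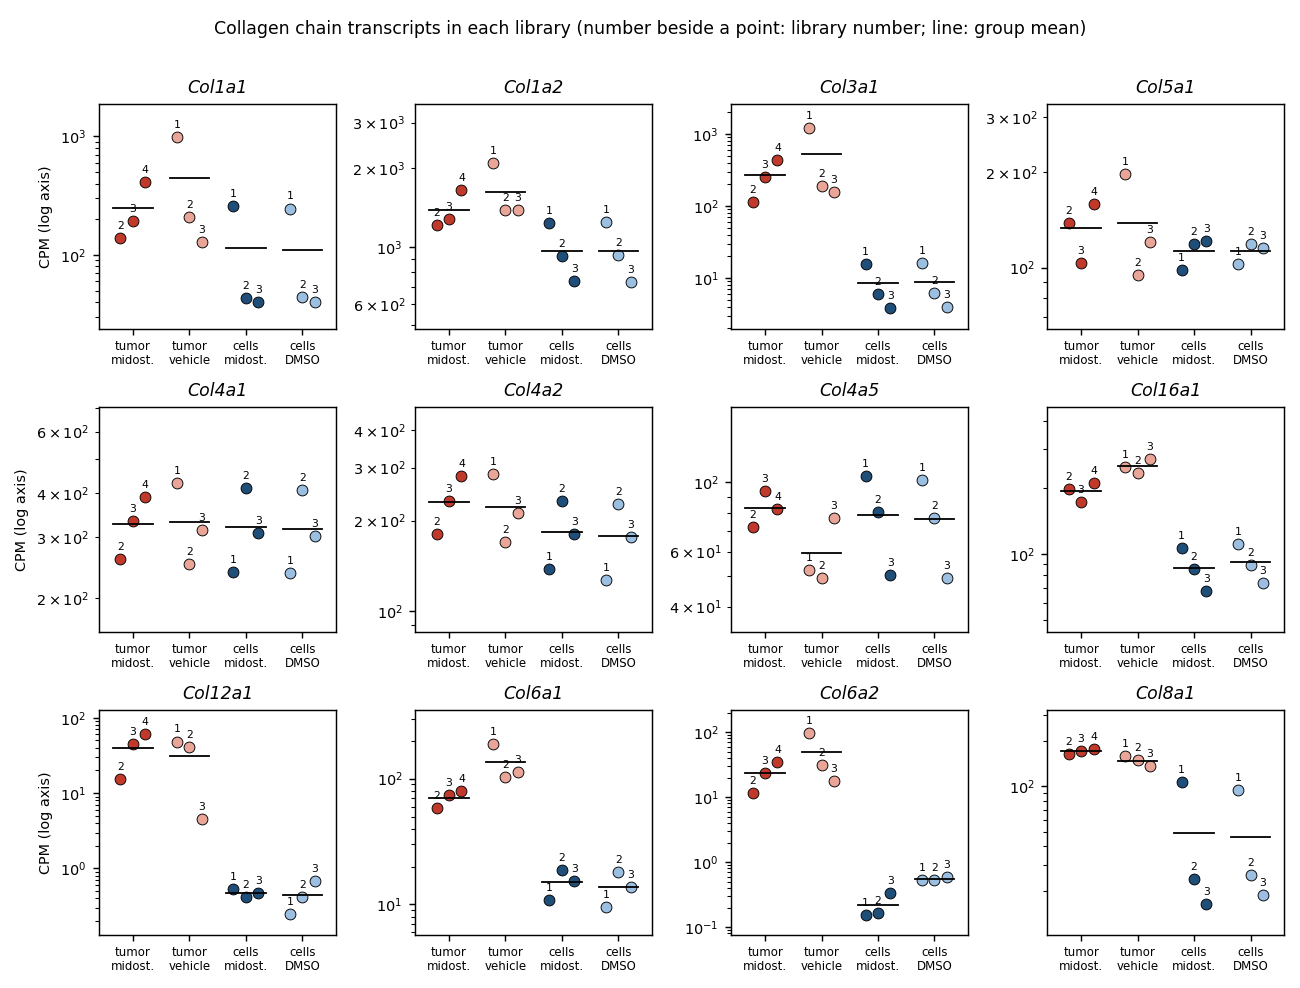
CPM on log axes of 12 collagen chains in each library, by group from left to right (midostaurin tumors, vehicle tumors, midostaurin cells, DMSO cells). Numbers beside points are library numbers and lines are group means; vehicle tumor 1 is the highest tumor for Col1a1, Col1a2 and Col3a1, and Col6a1 and Col16a1 are lower in all 3 midostaurin tumors than in all 3 vehicle tumors.

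Much of the tumor comparison changed without vehicle tumor 1. It was the highest of the 6 tumors for 17 of the 29 tested chains (58.6%), beside 22.5% of all genes, and midostaurin tumor 2 was the lowest for 12 (41.4%), beside 19.5%. Of the tested chains 20 had a log2 fold change below 0 with all 6 tumors, and for 11 of these the sign turned to above 0 without vehicle tumor 1, which is 37.9% of the 29 tested chains, beside 6.92% of all genes. The 11 were Col1a1, Col1a2, Col3a1, Col4a1, Col5a1, Col5a2, Col5a3, Col6a3, Col15a1, Col24a1 and Col27a1. The median log2 fold change of the tested chains was -0.36, beside -0.01 for all genes tested, and 0.13 without vehicle tumor 1. Of the 9 tested fibrillar chains, 8 lay below 0 with all 6 tumors and none did without vehicle tumor 1. Neither fit called a chain with edgeR.

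**Figure D3:**
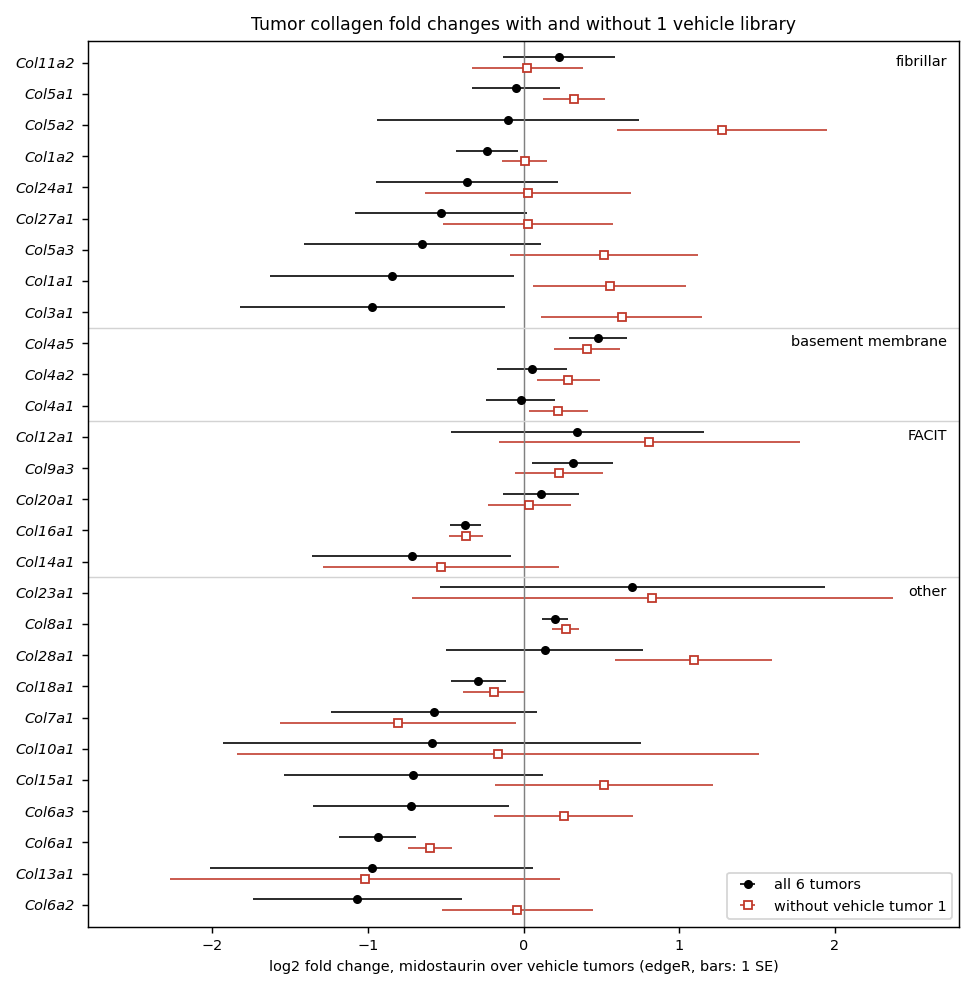
Log2 fold change of midostaurin over vehicle tumors for 28 of the 29 tested chains by class, with all 6 tumors (filled) and without vehicle tumor 1 (open), bars 1 SE. Col17a1, at -5.25, is left out for scale; Col1a1 and Col3a1 change sides of 0, while Col6a1 and Col16a1 stay below 0 and Col8a1 above 0 in both fits.

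Markers of host cells differed between the tumors as well. The fibroblast markers (Pdgfra, Dpt, Lum, Dcn, Pi16, Fap and Thy1) summed to 148 to 305 CPM in midostaurin tumors and 92.4 to 194 CPM in vehicle tumors, with 194 CPM in vehicle tumor 1, and all 7 were detected in every tumor. Dcn made up most of that signal in midostaurin tumors and a smaller part of it in vehicle tumors. It measured 104, 216 and 154 CPM in midostaurin tumors and 97.4, 89.3 and 41.6 CPM in vehicle tumors (log2 fold change 1.05 ± 0.37, edgeR adjusted p = 0.192, DESeq2 adjusted p = 0.022). Without Dcn the other 6 summed to 44.0, 89.8 and 75.1 CPM in midostaurin tumors and 97.0, 78.7 and 50.8 CPM in vehicle tumors, so the ranges overlapped and vehicle tumor 1 was the highest. Of the 7 markers 3 lay above 0 and 4 below, with a median log2 fold change of -0.11. Skeletal muscle markers summed to 37.5 CPM in midostaurin tumor 3 and to 0.308 and 0.193 CPM in the other 2 treated tumors, against 27.8 CPM in vehicle tumor 1 and 1.24 and 3.06 CPM in the other 2 vehicle tumors. Macrophage markers summed to 150 to 322 CPM in midostaurin tumors and 352 to 625 CPM in vehicle tumors, with the highest value in vehicle tumor 1. Endothelial markers summed to 51.4 to 92.5 CPM in midostaurin tumors and 53.6 to 109 CPM in vehicle tumors, again highest in vehicle tumor 1, as were pericyte and smooth muscle markers, at 71.3 to 99.0 CPM in midostaurin tumors and 67.1 to 123 CPM in vehicle tumors. Cartilage and bone markers summed to 65.8 to 84.8 CPM in midostaurin tumors and 28.4 to 43.2 CPM in vehicle tumors, nearly all of it Sox9, while Acan, Comp, Sp7, Ibsp and Bglap each stayed at or below 0.161 CPM. Adipocyte markers summed to 27.9 to 62.6 CPM in midostaurin tumors and 11.0 to 18.6 CPM in vehicle tumors, nearly all of it Plin4, with Adipoq and Plin1 at or below 0.302 CPM. Schwann cell markers summed to 2.21 to 4.38 CPM in midostaurin tumors and 1.83 to 3.22 CPM in vehicle tumors. The part of any of these cell types in the collagen values was not tested.

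The genes that fold, cut, link, bind and degrade collagen gave the setting of the chains, and none of their tested members passed with edgeR in tumors. Of 20 tested genes of collagen folding and modification, 6 lay above 0 and 14 below, with a median log2 fold change of -0.16. Fkbp10, a prolyl isomerase for collagen, measured 89.4, 94.3 and 92.9 CPM in midostaurin tumors, against 131, 120 and 116 CPM in vehicle tumors (log2 fold change -0.41 ± 0.08, edgeR adjusted p = 0.085, DESeq2 adjusted p = 0.000675). Serpinh1, which encodes the collagen chaperone HSP47, measured 525, 507 and 610 CPM in midostaurin tumors, against 796, 718 and 753 CPM in vehicle tumors (log2 fold change -0.46 ± 0.10, edgeR adjusted p = 0.0936, DESeq2 adjusted p = 0.000565). In both genes every treated tumor lay below every vehicle tumor. For P3h1, a collagen prolyl hydroxylase, the log2 fold change was -0.53 ± 0.13 (edgeR adjusted p = 0.115, DESeq2 adjusted p = 0.0169), and without vehicle tumor 1 the edgeR value was -0.43. DESeq2 called 3 of the 20 lower, beside 3.56% of all genes, and none higher, beside 5.43%. The groups did not overlap for 6, all lower, beside 13.5% of all genes.

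Of 11 tested genes of procollagen processing and crosslinking, 10 lay below 0, beside 52.1% of all genes. Without vehicle tumor 1, Pcolce2, Bmp1, Adamts14 and Loxl3 stayed below 0, at -0.15, -0.11, -0.51 and -0.45. Lox (2.00), Loxl1 (0.74), Loxl2 (0.69), Adamts2 (0.33), Loxl4 (0.023) and Pcolce (0.0072) turned to above 0, and Tll1 was above 0 in both fits. Loxl3, a lysyl oxidase, measured 110, 133 and 129 CPM in midostaurin tumors, against 199, 164 and 178 CPM in vehicle tumors, with no overlap between the groups (log2 fold change -0.54 ± 0.11, edgeR adjusted p = 0.091, DESeq2 adjusted p = 0.000679). For Adamts14, which trims the amino end of procollagen, the log2 fold change was -0.46 ± 0.14 (edgeR adjusted p = 0.152, DESeq2 adjusted p = 0.047). Pcolce, an enhancer of the carboxyl-end protease, and Bmp1, which encodes that protease, overlapped between groups. Among 9 tested collagen receptors 5 lay above 0 and 4 below. Ddr1, a receptor kinase for collagen, measured 52.1, 45.0 and 46.0 CPM in midostaurin tumors, against 30.3, 35.2 and 33.3 CPM in vehicle tumors (log2 fold change 0.54 ± 0.10, edgeR adjusted p = 0.0841, DESeq2 adjusted p = 0.000616). Mrc2, a receptor that takes up collagen for breakdown, and Lair1, an inhibitory collagen receptor of immune cells, lay lower in all 3 treated tumors, with log2 fold changes of -0.94 ± 0.25 and -0.89 ± 0.21 (edgeR adjusted p = 0.122 and 0.108). Itgb1, the beta chain of the collagen-binding integrins, lay higher in all 3, with a log2 fold change of 0.18 ± 0.08 (edgeR adjusted p = 0.256). Among the 9 receptors 2 were higher and 2 lower without overlap, beside 13.5% of all genes in each direction. Among the 11 processing genes 0 were higher and 2 lower without overlap, beside the same shares.

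Of 10 tested genes of collagen degradation, 8 lay above 0, with a median log2 fold change of 0.38. That list mixes proteases with the inhibitors Timp1, Timp2 and Timp3, which lay above 0 too, at 0.83, 0.17 and 0.46. The count is therefore not one of degrading enzymes alone. Mmp13, an interstitial collagenase, measured 23.4, 14.7 and 15.2 CPM in midostaurin tumors and 15.2, 7.63 and 9.78 CPM in vehicle tumors (log2 fold change 0.71 ± 0.30, edgeR adjusted p = 0.248), and midostaurin tumor 3 lay below vehicle tumor 1. Mmp8, the neutrophil collagenase, measured 10.1, 26.2 and 3.01 CPM in midostaurin tumors and 3.90, 1.05 and 2.12 CPM in vehicle tumors, with a log2 fold change of 2.48 ± 0.82 (edgeR adjusted p = 0.173). Midostaurin tumor 4 lay below vehicle tumor 1, and the log2 fold change ran from 1.49 to 3.06 when 1 tumor was left out. Timp1, a metalloproteinase inhibitor, had a log2 fold change of 0.83 ± 0.33 (edgeR adjusted p = 0.233, DESeq2 adjusted p = 0.0481), and its groups overlapped. In the TGF-beta axis, a pathway known to raise collagen transcription, 11 of 13 tested genes lay above 0, with a median of 0.21. Smad7, an inhibitor in that pathway, measured 41.9, 46.6 and 46.2 CPM in midostaurin tumors, against 28.8, 26.0 and 25.5 CPM in vehicle tumors (log2 fold change 0.75 ± 0.09, edgeR adjusted p = 0.0654, DESeq2 adjusted p = 1.26e-08). Skil, a repressor of Smad signaling, Ltbp1, which tethers latent TGF-beta to matrix, and Smad4 also lay higher in all 3 treated tumors. The receptor gene Tgfbr2 lay lower in all 3, at 68.7, 75.4 and 74.7 CPM in midostaurin tumors and 106, 79.5 and 84.7 CPM in vehicle tumors (log2 fold change -0.30 ± 0.12, edgeR adjusted p = 0.228). That is 4 of 13 genes higher and 1 lower without overlap, beside 13.5% of all genes in each direction. For all genes tested the median log2 fold change was -0.01.

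The second comparison asks which collagens midostaurin changed in cultured cells, and no chain passed the threshold. With edgeR, 0 of 22 tested chains were called, beside a background of 0% of the 14538 genes tested, and 1 of 22 had an unadjusted p below 0.05, beside 0.516% of all genes. DESeq2 and limma-voom called 0 of the 22 too, each beside 0.0138% of all genes. The log2 fold changes had a median of 0.00, with 11 above 0 and 11 below. Col6a2 was the chain with the unadjusted p below 0.05. It had 6, 6 and 12 counts in midostaurin cells 1, 2 and 3, against 21, 19 and 21 counts in DMSO cells, with no overlap. With edgeR the log2 fold change was -1.33 ± 0.40 (edgeR adjusted p = 0.9999), at levels of at most 0.595 CPM in cells. It was the 1 chain of 22 whose groups did not overlap, beside 1.13% of all genes lower without overlap.

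Abundant chains differed little between treated and control cells. Col1a2 measured 1235, 922 and 736 CPM in midostaurin cells and 1242, 928 and 730 CPM in DMSO cells. Col4a1 measured 237, 415 and 307 CPM in midostaurin cells and 237, 409 and 302 CPM in DMSO cells. Same-numbered libraries nearly coincided for both genes. In the fit without the replicate number, Col24a1, a minor fibrillar chain, and Col14a1 had the next smallest p, with log2 fold changes of 0.54 ± 0.45 and -0.37 ± 0.49, and Col24a1 stayed at or below 0.528 CPM in cells. Another fit took the replicate number as a block, which pairs cell libraries of the same number. There 3 of 22 chains had an unadjusted p below 0.05, beside 4.33% of all genes, and 0 were called (edgeR adjusted p = 0.992 for each). Beside Col6a2 they were Col16a1 and Col20a1, with log2 fold changes of -0.08 ± 0.04 and -0.39 ± 0.14 in that fit. Col20a1 measured 2.61, 5.84 and 8.81 CPM in midostaurin cells and 4.19, 7.11 and 10.4 CPM in DMSO cells, and Col16a1 measured 107, 85.2 and 68.1 CPM in midostaurin cells and 111, 89.5 and 73.8 CPM in DMSO cells. Both were lower in the treated library of all 3 pairs.

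For most tested chains the cell libraries numbered 1 lay to the same side of the mean of numbers 2 and 3 in both treatments. Col1a1 measured 261, 43.1 and 40.3 CPM in midostaurin cells 1, 2 and 3, and 247, 44.4 and 40.2 CPM in DMSO cells 1, 2 and 3. Both libraries numbered 1 lay 5.83 to 6.25 times above the mean of numbers 2 and 3. Col8a1 measured 106, 24.1 and 16.6 CPM in midostaurin cells and 93.9, 25.8 and 18.7 CPM in DMSO cells, and Col3a1 measured 15.5, 5.95 and 3.78 CPM in midostaurin cells and 16.0, 6.26 and 3.94 CPM in DMSO cells. The same libraries were low for Col18a1, with 16.4, 47.4 and 45.7 CPM in midostaurin cells and 15.0, 43.8 and 46.6 CPM in DMSO cells. Among the 22 tested chains, 6 lay higher in both libraries numbered 1 than in the other 4 cell libraries and 12 lower, beside 30.4% and 34.8% of all genes. This split follows the library number and not the treatment, and the labels do not say what the number stands for.

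**Figure D4:**
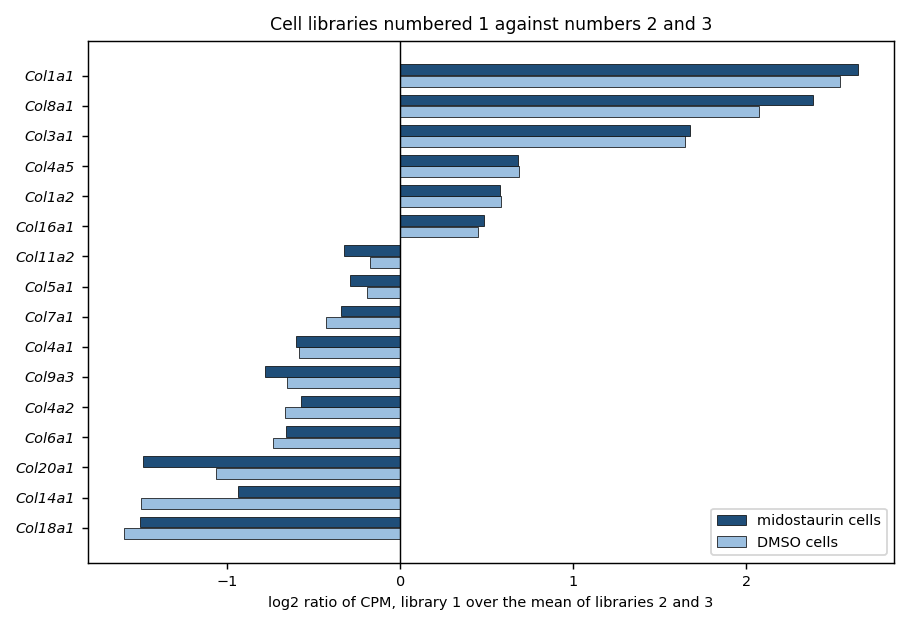
Log2 ratio of CPM in cell library 1 over the mean of libraries 2 and 3, in midostaurin cells (dark) and DMSO cells (light), for the 16 chains with a mean of 1 CPM or more in numbers 2 and 3. Col1a1, Col8a1, Col3a1, Col4a5, Col1a2 and Col16a1 lie above 0 and the other 10 below in both treatments.

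The third comparison asks whether the tumor response differed from the cell response, tested as an interaction over all 12 libraries. With edgeR, 0 of 31 tested chains were called, beside a background of 0.00589% of 16965 genes, and 0 were called by DESeq2 (beside 0.584%) or limma-voom (beside 0.00589%). At an unadjusted p below 0.05 there were 2 of 31 with edgeR, beside 6.08% of all genes. They were Col17a1, with a difference of log2 fold changes of -5.71 ± 2.14 (edgeR adjusted p = 0.728), and Col6a1, with -1.06 ± 0.41 (edgeR adjusted p = 0.753). The Col17a1 value was -0.91 ± 0.96 without vehicle tumor 2. For Col6a1 the tumor log2 fold change was -0.94 and that in cells 0.12, and without vehicle tumor 1 the difference was -0.73 ± 0.36.

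More chains were called between vehicle tumors and DMSO cells than in the comparisons above, which share those libraries. Vehicle tumors held far more Col3a1 than DMSO cells, and they held Col5a2, Col6a2, Col6a3, Col12a1 and Col15a1, which averaged below 1 CPM in DMSO cells. The line itself carried Col1a2, Col4a1, Col4a2, Col5a1, Col4a5 and Col16a1, at 49.5 CPM or more in each DMSO library. Of 31 tested chains edgeR called 16 higher in vehicle tumors, beside 24.5% of all genes, and 1 lower, Col20a1, beside 19.7%. By class, 5 of 10 fibrillar, 0 of 3 basement membrane, 2 of 5 FACIT and 9 of 13 other chains were higher. DESeq2 called 17 higher (beside 27.7%) and 1 lower (beside 20.5%), and limma-voom 13 higher (beside 25%) and 0 lower (beside 19.1%). Leaving out each of the 12 libraries in turn, 12 of the 17 edgeR calls held every time, and those of Col1a2, Col13a1, Col17a1, Col20a1 and Col23a1 were lost at least once. Without vehicle tumor 1 edgeR called 14 of 31 higher and 0 lower, beside 3580 higher and 2619 lower of all 17445 genes tested. Tumors and cells differ in cell content, culture and handling, which cannot be told apart here.

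Among type I and type III chains, Col1a2 was abundant in both sources and Col3a1 was low in cells. Col1a2 measured 2092, 1379 and 1385 CPM in vehicle tumors 1, 2 and 3, against 1242, 928 and 730 CPM in DMSO cells 1, 2 and 3. Every tumor lay above every cell library, and the log2 fold change was 0.74 ± 0.26 (edgeR adjusted p = 0.0387). That call was lost without vehicle tumor 1 (0.51 ± 0.26, edgeR adjusted p = 0.155), DMSO cells 2 (0.70, edgeR adjusted p = 0.107) or DMSO cells 3 (0.58, edgeR adjusted p = 0.135), and narrowly without midostaurin cells 2 or midostaurin tumor 3, which share the estimate of the spread (edgeR adjusted p = 0.0514 and 0.0504). Col1a1 measured 995, 211 and 128 CPM in vehicle tumors, against 247, 44.4 and 40.2 CPM in DMSO cells. DMSO cells 1 lay above 2 of the tumors, and the log2 fold change of 2.01 ± 1.05 did not pass (edgeR adjusted p = 0.145). It was 0.61 without vehicle tumor 1, and 3.41 without DMSO cells 1, where it passed (edgeR adjusted p = 0.035). It also passed with the replicate number as a block (edgeR adjusted p = 0.0045). That block matches each tumor to a culture by number alone, a link the labels do not give, so this p adds no support.

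Col3a1 was 59.3-fold higher in vehicle tumors than in DMSO cells, at 1210, 187 and 158 CPM in vehicle tumors against 16.0, 6.26 and 3.94 CPM in DMSO cells. The lowest tumor lay far above the highest cell library, and the log2 fold change was 5.89 ± 1.07 (edgeR adjusted p = 0.0014). Without vehicle tumor 1 it was 19.6-fold (edgeR adjusted p = 0.0027), and without DMSO cells 1 it was 103-fold (edgeR adjusted p = 0.00244). Per kb of transcript, where chains can be compared with each other, Col1a2 exceeded Col1a1 in every library. The ratio of Col1a1 to Col1a2 per kb was 0.429, 0.138 and 0.0836 in vehicle tumors 1, 2 and 3, and 0.179, 0.0432 and 0.0497 in DMSO cells 1, 2 and 3. In midostaurin tumors 2, 3 and 4 it was 0.103, 0.137 and 0.226, and in midostaurin cells 0.191, 0.0422 and 0.0494.

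Type V chains split between the line and the tumor. Col5a1 measured 198, 95 and 120 CPM in vehicle tumors and 103, 119 and 116 CPM in DMSO cells, and the groups overlapped (log2 fold change 0.30 ± 0.24, edgeR adjusted p = 0.338; -0.06 without vehicle tumor 1). Its partner Col5a2 measured 94.1, 21.9 and 11.0 CPM in vehicle tumors, against 1.32, 0.138 and 0.227 CPM in DMSO cells, a 73.2-fold difference (edgeR adjusted p = 0.00414; 28.4-fold without vehicle tumor 1 and 231-fold without DMSO cells 1). Col5a3 measured 78.8, 21.7 and 11.8 CPM in vehicle tumors, against a summed count of 2 over the 3 DMSO cell libraries, both in DMSO cells 1. The ratio of summed counts, scaled by library size, was 2074 (95% interval 574 to 17128, counting error only), and 918 without vehicle tumor 1. In culture both lay far below Col5a1, and Col5a2 was highest in the libraries numbered 1, with 65 counts in midostaurin cells 1 and 53 counts in DMSO cells 1.

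Type VI chains were all higher in vehicle tumors, by unequal amounts. Col6a1 measured 189, 103 and 112 CPM in vehicle tumors, against 9.55, 18.2 and 13.7 CPM in DMSO cells (9.79-fold, edgeR adjusted p = 3.5e-05). Col6a2 measured 98.6, 30.8 and 17.5 CPM in vehicle tumors, against 0.523, 0.524 and 0.595 CPM in DMSO cells (89.4-fold, edgeR adjusted p = 9.31e-05; 43.9-fold without vehicle tumor 1). Col6a3 measured 102, 35.2 and 17.8 CPM in vehicle tumors and had no count in any DMSO cell library. With each DMSO library set to the limit that a count of 0 allows, 3 counts, Col6a3 was at least 641-fold higher in vehicle tumors (edgeR adjusted p = 0.000115). Without vehicle tumor 1 it was at least 328-fold higher (edgeR adjusted p = 0.000123). In all 3 genes every tumor lay above every cell library, and the ratio of Col6a2 to Col6a1 per kb was 0.542, 0.311 and 0.162 in vehicle tumors against 0.0569, 0.0299 and 0.045 in DMSO cells.

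**Figure D5:**
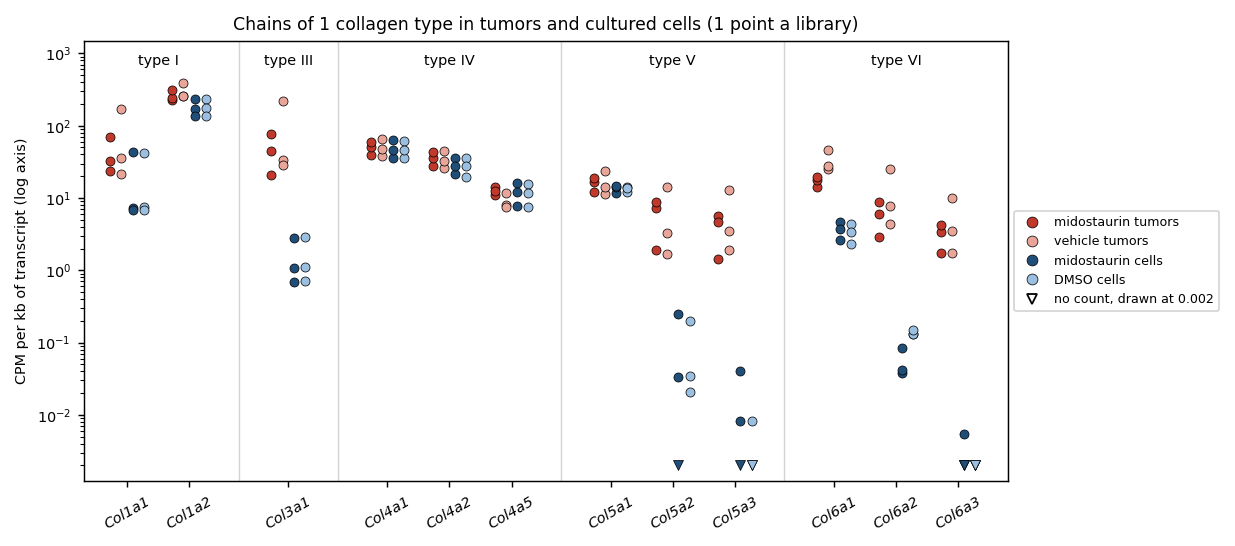
CPM per kb of transcript on a log axis for the chains of types I, III, IV, V and VI, 1 point a library, with triangles for libraries without a count. Col4a1 and Col4a2 lie together in tumors and cells, while Col5a2, Col5a3, Col6a2 and Col6a3 lie far below their partners Col5a1 and Col6a1 in both cell groups.

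Type IV chains stayed within a narrow ratio of each other, which differed between tumors and cells. Col4a1 measured 428, 251 and 314 CPM in vehicle tumors and 237, 409 and 302 CPM in DMSO cells, and Col4a2 measured 286, 169 and 213 CPM in vehicle tumors and 127, 228 and 176 CPM in DMSO cells. The groups overlapped for both genes (log2 fold changes 0.07 ± 0.26 and 0.34 ± 0.26, edgeR adjusted p = 0.847 and 0.329; -0.16 for Col4a1 without vehicle tumor 1). The ratio of Col4a1 to Col4a2 per kb was 1.38 ± 0.0292 in midostaurin tumors, 1.45 ± 0.0101 in vehicle tumors, 1.70 ± 0.0419 in midostaurin cells and 1.75 ± 0.0697 in DMSO cells (mean ± SD, n = 3 each). The ratio was 1.35 to 1.40 in midostaurin tumors and 1.44 to 1.46 in vehicle tumors, and 1.67 to 1.74 in midostaurin cells and 1.67 to 1.81 in DMSO cells. Midostaurin tumors lay below vehicle tumors without overlap and all 6 tumors below all 6 cell libraries, differences that were not tested. Col4a1 itself ran from 237 to 428 CPM. The exons of both genes overlap by 22 bases on opposite strands, as shown by their promoter windows, and the strand setting of the counting is not given in the sources used here.

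FACIT and other chains completed the contrast. Col12a1 measured 48.4, 41.2 and 4.57 CPM in vehicle tumors, against 0.249, 0.414 and 0.680 CPM in DMSO cells (70.7-fold, edgeR adjusted p = 0.000451). Col16a1 measured 247, 232 and 271 CPM in vehicle tumors, against 111, 89.5 and 73.8 CPM in DMSO cells (2.73-fold, edgeR adjusted p = 0.000185). Neither gene's groups overlapped, and Col16a1 varied little between tumors. Col15a1, a collagen at the border of basement membranes, was 122-fold higher in vehicle tumors (64.0, 9.51 and 16.4 CPM there, against 0.0997, 0.303 and 0.340 CPM in DMSO cells; edgeR adjusted p = 0.000753; 52.2-fold without vehicle tumor 1). Col18a1 measured 123, 98.4 and 109 CPM in vehicle tumors, against 15.0, 43.8 and 46.6 CPM in DMSO cells (3.15-fold, edgeR adjusted p = 0.012).

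The remaining calls lay near the detection floor or on 1 library. Col27a1 and Col28a1, minor chains, had no count in DMSO cells and averaged 1.45 and 0.704 CPM in vehicle tumors, at least 17.9-fold and at least 8.71-fold higher by the same limit. Without vehicle tumor 1 the bounds were at least 12.3-fold and at least 4.51-fold. The summed counts of Col13a1 and Col23a1, both transmembrane chains, were 121 and 147 in vehicle tumors, against 2 and 3 in DMSO cells. The Col17a1 call rests on vehicle tumor 2, without which the log2 fold change was 0.07 (edgeR adjusted p = 0.946), and it was also lost without any 1 DMSO library. The Col13a1 call was lost without vehicle tumor 2 (edgeR adjusted p = 0.0501) or DMSO cells 3 (edgeR adjusted p = 0.0569). For Col23a1 the call was lost without 6 of the 12 libraries in turn, among them vehicle tumors 1 and 2 (edgeR adjusted p = 0.071 and 0.0893).

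Col20a1, a FACIT chain, was the 1 chain lower in vehicle tumors. It measured 2.74, 2.63 and 4.01 CPM there, against 4.19, 7.11 and 10.4 CPM in DMSO cells, with no overlap but neighbouring values of 4.01 and 4.19 CPM. The log2 fold change was -1.21 ± 0.42 (edgeR adjusted p = 0.0397). That call was lost without 8 of the 12 libraries in turn, and the edgeR adjusted p then ran up to 0.161, the value without DMSO cells 3; it was 0.112 without vehicle tumor 1. The annotation gives it 79 exon bases in common with BX649560.1 on the same strand.

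The genes that act on collagen were compared between the same groups. Of 20 tested genes of folding and modification edgeR called 15 higher and 2 lower in vehicle tumors than in DMSO cells. Of 11 tested genes of processing and crosslinking 8 were higher and 0 lower, and of 9 receptors 6 and 0. Of 10 degradation genes, inhibitors included, 7 were higher and 0 lower, and of 13 genes of the TGF-beta axis 5 and 3. Over all genes 24.5% were called higher and 19.7% lower. The lists of host cell markers differed in how many members were higher in every vehicle tumor than in every DMSO library, beside 30.3% of all genes. These were 6 of 7 tested markers for fibroblasts, 5 of 6 for endothelium and 5 of 5 for macrophages. For pericytes and smooth muscle they were 5 of 6, and for skeletal muscle 3 of 5. For keratinocytes they were 0 of 2, and for cartilage and bone, adipocytes and Schwann cells 0 of 1 each. The fibroblast marker Thy1 had no count in any cell library and lay at 18.2 to 38.4 CPM in vehicle tumors. Among fibroblast markers the exception was Pdgfra, at 28.4, 31.5 and 23.5 CPM in vehicle tumors and 15.1, 34.9 and 32.8 CPM in DMSO cells. Among endothelial markers it was Vwf, at 1.61, 0.725 and 0.514 CPM in vehicle tumors and 0.424, 0.855 and 1.39 CPM in DMSO cells. Fibroblast markers summed to 92.4 to 194 CPM in vehicle tumors and 16.2 to 57.2 CPM in DMSO cells, endothelial markers to 53.6 to 109 CPM in vehicle tumors and 0.523 to 1.93 CPM in DMSO cells, and macrophage markers to 352 to 625 CPM in vehicle tumors and 4.71 to 25.4 CPM in DMSO cells. Their part in the tumor collagen levels was not tested.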

How the data were processed

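The authors deposited counts for each gene as whole numbers, with cells and tumors in separate tables. FastQC 0.11.2, Bowtie2 2.3.4, RSEM and the build mm10 are listed, with no roles, in the submitters' processing notes. The annotation, the strand setting and whether RSEM estimates were rounded are not given in the sources used here. Directional poly(A) libraries were made with a NEBNext kit from TRIzol RNA, per the labels' protocols. RSEM shares reads among similar genes by an estimate. Symbols came from a table of mouse gene identifiers (181 of 55335 without one), and exon overlaps and the length of the transcript with the longest coding sequence from a GENCODE M21 annotation of the same build. The labels number the treated tumors 1 to 3 and the columns 2 to 4. The column with number 4 therefore matches no label number, and it entered as a treated replicate by its group name alone.

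Counts were tested with edgeR 4.0.16 in R 4.3.3 (filterByExpr, TMM, quasi-likelihood F-test, Benjamini-Hochberg adjusted p below 0.05 over all genes tested). Tumors and cells were fitted separately, and the difference of responses and vehicle tumors against DMSO cells over 12 libraries. SE is the absolute log2 fold change divided by the root of F. Fold changes are on the log2 scale with edgeR's default prior count. The steps were tested on simulated counts. Alternatives were DESeq2 1.42.0, limma-voom 3.58.1, DESeq2 size factors, no low-count filter, a replicate block, another pool of libraries for the spread, and leaving out each library. Same-numbered cell libraries deviated together across genes (correlations of 0.82, 0.56 and 0.56). Unlike numbers correlated at 0.41 and 0.44 between numbers 2 and 3, and at -0.64 to -0.62 where number 1 was involved. By the data, not the labels, the libraries numbered 1 thus go together, while numbers 2 and 3 are separated less clearly. In tumors numbers 2 and 3 alone are shared.

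The members, the gene lists and the rule for named genes were chosen with earlier results of these data known. The rule takes Col1a1, Col1a2, Col3a1, Col5a1, Col4a1, Col4a2, Col6a1, Col12a1 and Col18a1, up to 4 chains per class and 4 genes per list with the smallest tumor p, up to 3 chains with the smallest cell p, and up to 4 called chains per direction with the largest difference between vehicle tumors and DMSO cells. Others named (Col5a2, Col6a2 and Col6a3 in tumors, Col7a1, Col13a1, Col15a1, Col16a1 and Col17a1 between tumors and cells, Col23a1, Col16a1 and Col20a1 in cells, Itgb1, Tgfbr2, Dcn, Pdgfra, Vwf, the chains below 1 CPM and those listed by sign or library) were chosen after their values were seen. So were Timp2, Timp3 and the processing genes listed by sign.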

Additional observations from a re-analysis of the deposited data

How the results depend on the processing

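Each count of called chains and each median was recomputed under the alternatives. In tumors DESeq2 called 2 chains in place of 0, and again 2 without vehicle tumor 1 (a choice made after seeing the data), there Col6a1 and Col17a1. That Col17a1 call rests on vehicle tumor 2, at 27.5 CPM against 0.18 to 0.443 CPM in the other tumors. The tumor median of -0.36 moved to 0.13 without vehicle tumor 1 (0.12 with DESeq2), and leaving out each tumor in turn gave -0.47 to 0.13 and 0 called chains. In cells leaving out each library gave medians of -0.11 to 0.061 around 0.00 and 0 called chains. Between vehicle tumors and DMSO cells it gave medians of 1.45 to 2.19 around 1.65, and 12 to 19 called chains in place of 17. Over all genes it gave 6007 to 8072 calls there, in place of 7501. The difference of responses had 0 called chains under every alternative run.

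With the replicate number as a block, 0 chains were called in tumors (median 0.00), in cells and for the difference. Between vehicle tumors and DMSO cells, matched by number alone, 16 of 26 tested chains were called, beside 5515 of 15899 genes. In the tumor fit with the block the log2 fold changes were 0.0018 for Col1a1, 0.052 for Col27a1, 0.069 for Col4a1, 0.17 for Col5a1 and 0.070 for Pcolce, above 0 where those of the report lay below. The number pairs no tumors by design, and the same-numbered correlations were 0.10 and -0.18. With limma-voom Col5a1 was also above 0 in tumors, at 0.0022.

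DESeq2 without vehicle tumor 1 gave tumor log2 fold changes of 0.55 for Col1a1, 0.0035 for Col1a2, 0.027 for Col27a1, 0.62 for Col3a1, 0.22 for Col4a1, 0.32 for Col5a1 and 0.0044 for Pcolce, all above 0. Leaving out each tumor in turn, the log2 fold change crossed 0 for Col12a1 (-0.17 to 0.81), Col1a1 (-1.41 to 0.55), Col1a2 (-0.37 to 0.0070), Col27a1 (-0.92 to 0.030), Col3a1 (-1.51 to 0.63), Col4a1 (-0.17 to 0.22), Col4a2 (-0.10 to 0.29), Col5a1 (-0.25 to 0.32) and Pcolce (-0.30 to 0.0072). Between vehicle tumors and DMSO cells it crossed 0 for Col4a1 (-0.16 to 0.29) and Col5a1 (-0.065 to 0.51). The cause was not tested. Of 800 recomputed values of named genes, 727 kept their direction and side of the threshold, 18 lost a call, 26 gained one and 29 changed direction.

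Over all genes, DESeq2 called 1447 genes in tumors (945 without vehicle tumor 1) and limma-voom 16 where edgeR called 7, and edgeR called 0 without the filter or with the block and 0 to 1 without any 1 tumor. In cells DESeq2 and limma-voom called 2 each and the block 8, where edgeR called 0, and for the difference DESeq2 called 99 and the block 16, where edgeR called 1. Chains below about 1 CPM rest on few counts.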
